A study of Homo sapiens with 12 samples.

Results

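NKX2-1 and SFTA3 are neighbouring genes on human chromosome 14, and their expression was followed across 12 arrays of a breast cancer line in which fatty acid oxidation had been altered. All probe sets that the platform annotation assigns to NKX2-1 or to SFTA3 alone were taken. They are 2 of 19775 named genes, with 3 of the 54675 probe sets on the array: 211024_s_at and 210673_x_at for NKX2-1 and 228979_at for SFTA3. A probe set is a group of short oligonucleotides on the array whose signals are summarised into 1 intensity. The pair was chosen by its own log2 intensities on these arrays, which earlier work on the same data had found higher in the knockdown lines than in scramble, so the values of both genes across the groups are given as descriptions and carry no p-value.

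The arrays came from MDA231 (MDA-MB-231), an established human triple-negative breast cancer line, in 4 groups of 3 arrays. MDA231-Scramble +ETX cells (ETX) carried a scrambled short hairpin RNA and received ETX, which the labels do not spell out. It is taken here to be etomoxir, which blocks carnitine palmitoyltransferase 1 (CPT1). MDA231-shCPT-1 cells (shCPT-1) and MDA231-shCPT-2 cells (shCPT-2) carried pGIPZ lentiviral hairpins against CPT1 or CPT2, both needed for long-chain fatty acids to enter the mitochondrial matrix. MDA231-Scramble cells (scramble) carried the scrambled hairpin without ETX, and the design compares each alteration with them. No source used here states the CPT1 isoform aimed at, the number of hairpins, whether the lines are clones, or how much ETX was given and for how long. Nor do the labels call the 3 arrays of a group separate cultures. The p-values may thus cover technical spread alone, and 3 arrays a group limit the precision.

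NKX2-1, also called TTF-1 or TITF1, is a homeodomain transcription factor that sets up the lung, the thyroid and part of the ventral forebrain. In lung epithelium it drives surfactant genes, in the thyroid it drives thyroglobulin, and pathologists stain for it to recognise lung adenocarcinoma. SFTA3 (also listed as NANCI and SFTPH) lies beside it, is classed as a long noncoding RNA in RefSeq, and is known for expression in lung together with NKX2-1. Neither gene is a marker of breast epithelium.

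RefSeq (GRCh38.p14) gives each of the 2 genes 2 start sites, and 1 of them is common to both. Of 34943 distinct start windows in that table, 171 (0.489%) are shared by genes of different symbols. The 3 windows of the pair are shown because the shared start means that 1 stretch of DNA stands in front of transcripts of both genes. Each window runs from 250 bases before to 50 bases after the start on the minus strand of chromosome 14, with capitals on the motifs searched. Those were CAAGTG and CTCAAG, cores of the kind NKX2-1 binds, GGGCGG (a GC box), TATAAA and CCAAT, each read on both strands.
Shared NKX2-1 and SFTA3 start, chr14:36519507-36519806: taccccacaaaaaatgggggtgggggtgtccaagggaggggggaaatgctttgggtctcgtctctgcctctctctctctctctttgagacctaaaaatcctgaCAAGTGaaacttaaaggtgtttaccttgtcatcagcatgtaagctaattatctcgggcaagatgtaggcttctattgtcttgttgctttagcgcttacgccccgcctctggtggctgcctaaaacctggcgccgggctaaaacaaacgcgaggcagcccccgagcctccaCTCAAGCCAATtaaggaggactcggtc
NKX2-1 upstream start, chr14:36520183-36520482: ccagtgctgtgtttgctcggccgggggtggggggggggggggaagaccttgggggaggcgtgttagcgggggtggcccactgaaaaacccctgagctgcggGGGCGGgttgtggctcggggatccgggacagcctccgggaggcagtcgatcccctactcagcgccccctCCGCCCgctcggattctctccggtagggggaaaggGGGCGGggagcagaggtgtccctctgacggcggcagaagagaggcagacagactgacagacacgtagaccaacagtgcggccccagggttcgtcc
SFTA3 downstream start, chr14:36513486-36513785: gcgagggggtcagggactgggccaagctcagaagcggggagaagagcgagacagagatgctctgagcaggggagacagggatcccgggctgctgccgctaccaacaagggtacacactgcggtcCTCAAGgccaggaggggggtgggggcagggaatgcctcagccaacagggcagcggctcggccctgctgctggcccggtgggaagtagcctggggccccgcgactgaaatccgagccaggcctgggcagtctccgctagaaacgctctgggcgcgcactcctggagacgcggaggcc

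The shared window held 1 CAAGTG and 1 CTCAAG, and a CCAAT that followed the CTCAAG directly without overlap but no GGGCGG or TATAAA. The upstream NKX2-1 window held 3 GGGCGG matches and none of the other motifs, and the downstream SFTA3 window held 1 CTCAAG and none of the others. Among all start windows of the same length, CAAGTG was present in 11.5%, CTCAAG in 12.4%, CCAAT in 34.6%, GGGCGG in 44.9% and TATAAA in 11.6%. The shared window was 52% G or C with 11 CpG pairs, the upstream NKX2-1 window 69% with 21 and the downstream SFTA3 window 68.3% with 18, against medians of 58.7% and 14 over all windows. The upstream NKX2-1 start lies 676 bases before the shared start, and the downstream SFTA3 start 6021 bases after it. The spans of the 2 genes overlap on the same strand in RefSeq, and the positions of the probes are not given in the files, so the arrays cannot say from which start a transcript came. These matches describe letters and are not evidence of binding.

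The 12 arrays were alike in overall level. Array medians lay between 6.23 and 6.27 on the log2 scale, and arrays of 1 group correlated at 0.9945 to 0.9989 over 12886 tested genes, above the highest value of 0.9913 between groups. CPT1A was lower in shCPT-1 (log2 difference -1.59 ± 0.08 SE, limma adjusted p = 1.97e-08) and CPT2 in shCPT-2 (-1.0 ± 0.10, adjusted p = 5.46e-06), as the labels of those lines say. CPT1A also differed by 1.11 ± 0.08 with ETX (limma adjusted p = 1.46e-06) and by -0.23 ± 0.08 in shCPT-2 (0.0318). CPT2 differed by 0.27 ± 0.10 with ETX (limma adjusted p = 0.043) and by 0.22 ± 0.10 in shCPT-1, which did not pass (0.0987). The actin control probe sets, whose 3′ minus 5′ signal rises with RNA breakdown or weak labelling, differed by 1.68 to 1.78 log2 units in ETX, 1.47 to 1.91 in shCPT-1, 1.45 to 1.91 in shCPT-2 and 1.76 to 2.25 in scramble. Of the genes that mark this mesenchymal line, VIM, CD44, AXL, MSN and ZEB1 averaged 11.1 to 14.5 on the log2 intensity scale. CDH1 and PGR stayed under the array median on all 12 arrays, while ESR1, GATA3 and EPCAM, which were taken as low in this line, read above it on all 12. Of these 10 markers 8 were tested, and by limma 0 were higher in any comparison (1, AXL with ETX, at an unadjusted p under 0.05). Those lower were GATA3 with ETX, CD44, MSN, GATA3 and EPCAM in shCPT-1, and MSN in shCPT-2, by at most 0.33 log2 units. The GATA3 call with ETX ended without ETX 2 (adjusted p = 0.0533), and that of CD44 without scramble 1, scramble 2, ETX 1, ETX 2, shCPT-1 1, shCPT-1 2 or shCPT-2 3 (0.0525 to 0.147). Neither passed by limma with the mean of its kept probe sets. That gave -0.12 for GATA3 with ETX (adjusted p = 0.0988) and -0.03 for CD44 in shCPT-1 (adjusted p = 0.695).

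NKX2-1, read by probe set 211024_s_at, was high in both knockdown lines and lowest in scramble. Its log2 intensity was 8.02, 8.11 and 8.30 on the ETX arrays, 9.25, 9.43 and 9.35 on the shCPT-1 arrays, 9.78, 9.86 and 9.84 on the shCPT-2 arrays, and 7.90, 8.06 and 7.99 on the scramble arrays. All 6 knockdown arrays lay above all 6 other arrays, and the shCPT-2 arrays lay above the shCPT-1 arrays, while ETX and scramble arrays overlapped. The difference from scramble was 1.36 ± 0.07 (SE, n = 3 per group) in shCPT-1, which is 2.57-fold, and 1.84 ± 0.07 in shCPT-2, which is 3.59-fold. With ETX the difference was 0.16 ± 0.07, and shCPT-2 stood 0.48 ± 0.07 above shCPT-1. These are bulk measurements, in which more cells with the transcript and more transcript per cell cannot be told apart.

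SFTA3, read by its only probe set 228979_at, had the same order of groups. Its log2 intensity was 7.50, 7.43 and 7.45 on the ETX arrays, 8.88, 9.01 and 8.99 on the shCPT-1 arrays, 9.33, 9.23 and 9.23 on the shCPT-2 arrays, and 7.09, 7.12 and 7.30 on the scramble arrays. No 2 groups of SFTA3 overlapped, so that shCPT-2 was highest, then shCPT-1, then ETX, with scramble lowest. The difference from scramble was 1.79 ± 0.06 in shCPT-1 (3.46-fold), 2.09 ± 0.06 in shCPT-2 (4.26-fold) and 0.29 ± 0.06 with ETX (1.22-fold). The step between the 2 knockdown lines was 0.30 ± 0.06. Groups that do not overlap are common in these data: of the tested genes, 27.8% lay wholly higher in shCPT-1 than in scramble, 28.3% in shCPT-2 and 25.8% with ETX, and 24.7% lay wholly higher in shCPT-2 than in shCPT-1. What sets the pair apart from that background is size, which is how it was chosen. Ordered by difference from scramble, SFTA3 stood at place 8 and NKX2-1 at place 21 in shCPT-1, and at places 9 and 14 in shCPT-2. With ETX they stood at places 1554 and 2974.

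The other NKX2-1 probe set, 210673_x_at, did not show this pattern. Its log2 intensity was 6.84, 6.65 and 6.84 on the ETX arrays, 7.15, 7.27 and 7.09 on the shCPT-1 arrays, 7.15, 7.51 and 7.13 on the shCPT-2 arrays, and 6.92, 6.90 and 7.25 on the scramble arrays. Both knockdown groups overlapped with scramble, and the ETX arrays lay just under the scramble arrays, as did 23.8% of the tested genes. Its differences from scramble were 0.15 ± 0.11 in shCPT-1, 0.24 ± 0.11 in shCPT-2 and -0.24 ± 0.11 with ETX, from a fit over all probe sets. The difference with ETX thus has opposite signs in the 2 probe sets of NKX2-1. The ending _x_at marks probe sets with probes that can bind other transcripts, and _s_at those whose probes match several transcripts, usually of 1 gene. All 3 probe sets exceeded the array median on all 12 arrays, so none of them passed the filter on dim signals only through the knockdown arrays. The large NKX2-1 difference therefore rests on 1 of its 2 probe sets.

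**Figure D1:**
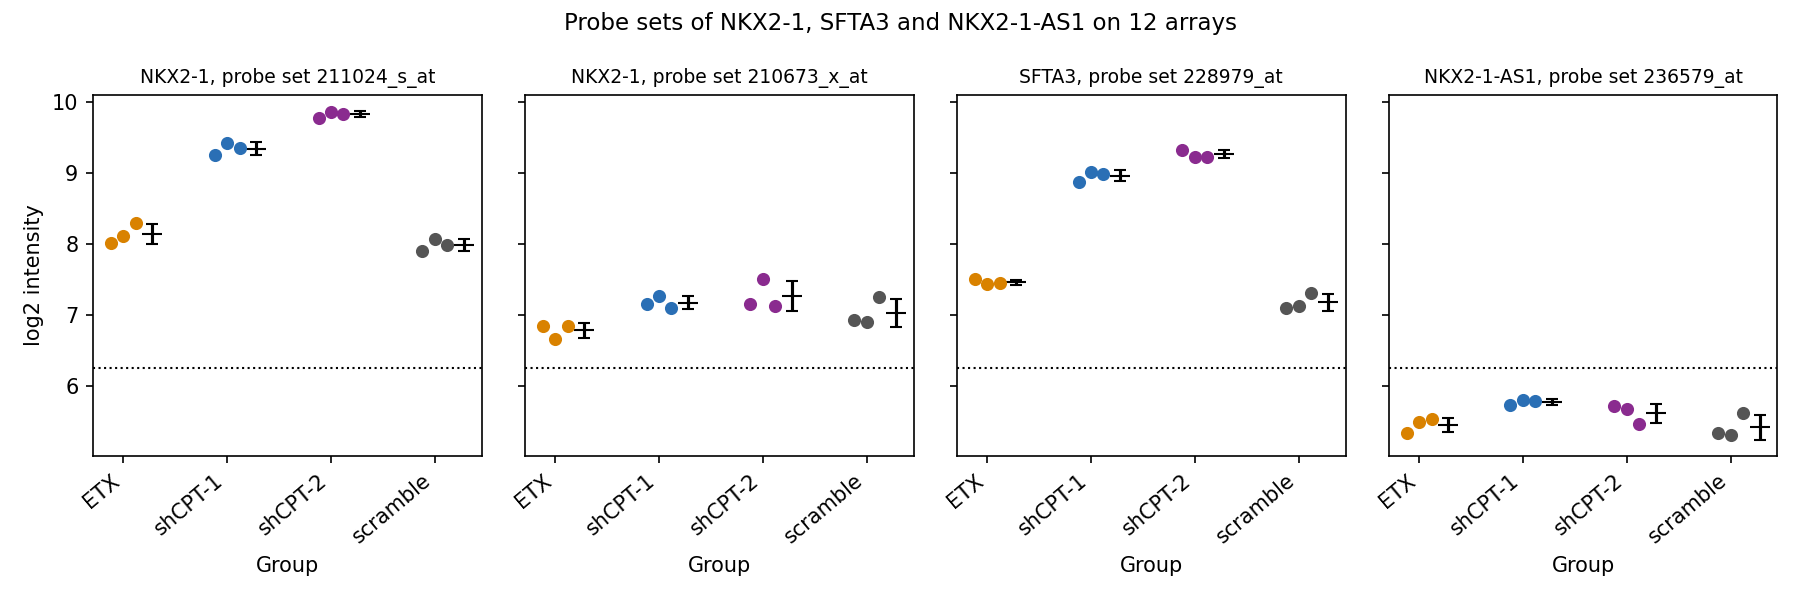
Log2 intensity (vertical axis) of each array for the 2 NKX2-1 probe sets, the SFTA3 probe set and the NKX2-1-AS1 probe set in ETX, shCPT-1, shCPT-2 and scramble arrays. Points are arrays, bars beside them are the mean ± SD of 3 arrays, and the dotted line is the mean of the array medians. Probe sets 211024_s_at and 228979_at step up in both knockdown groups, 210673_x_at overlaps between knockdown and scramble arrays, and NKX2-1-AS1 stays under the line.

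NKX2-1-AS1, the antisense transcript of NKX2-1, starts inside the NKX2-1 gene on the plus strand, 278 bases beyond the shared start. Its probe set 236579_at read 5.34, 5.49 and 5.52 on the ETX arrays, 5.73, 5.80 and 5.78 on the shCPT-1 arrays, 5.71, 5.67 and 5.46 on the shCPT-2 arrays, and 5.33, 5.30 and 5.61 on the scramble arrays. It was under the array median on all 12 arrays. The shCPT-1 arrays lay above the scramble arrays by 0.36 ± 0.09 (limma over all probe sets, adjusted p = 0.0173). The difference was 0.20 ± 0.09 in shCPT-2 (adjusted p = 0.16) and 0.04 ± 0.09 with ETX (adjusted p = 0.84), neither of which passed. At such a signal a fold is uncertain, and the steps are far smaller than those of 211024_s_at and 228979_at.

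Within groups the 2 genes did not vary in step on every array. In shCPT-1 the first array was the lowest for both, 0.10 under the group mean for NKX2-1 and 0.08 under it for SFTA3. In shCPT-2 the first array was lowest for NKX2-1, 0.05 under the mean, and highest for SFTA3, 0.07 above it. In scramble the second array was highest for NKX2-1 and the third was highest for SFTA3. All these deviations were under 0.16 log2 units, against knockdown differences of 1.36 to 2.09.

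The genes around the pair on chromosome 14 were read next, to see whether the difference extended along the chromosome. In a list of 29 coding genes on both sides, 21 were tested, 5 lay under the filter and 3 had no probe set with a single gene symbol. In shCPT-1 3 of the 21 were higher and 7 lower than in scramble, where 23.1% of all tested genes were higher and 18% lower (limma, adjusted p under 0.05). In shCPT-2 4 were higher and 7 lower, against 25.6% and 20.5% of all tested genes, and with ETX 6 were higher and 1 lower, against 21.9% and 19.4%. Among the 7 lower in shCPT-2 are PNN and CFL2, whose direction is not settled, and FOXA1, which is no support for a fall. FOXA1 is also among the 7 lower in shCPT-1. The limits of these calls are given below. The list's median difference was -0.03 in shCPT-1, -0.02 in shCPT-2 and 0.12 with ETX, against 0.01, 0.00 and -0.01 over all tested genes. The highest difference of any neighbour was 0.55 in shCPT-1 and 0.49 in shCPT-2, well short of the 1.36 and 1.84 of NKX2-1.

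MBIP, the nearest coding gene on the SFTA3 side and a subunit of the ATAC acetyltransferase complex, was higher in all 3 comparisons. It stood 0.43 ± 0.10 above scramble with ETX (adjusted p = 0.00486), 0.46 ± 0.10 in shCPT-1 (adjusted p = 0.00262) and 0.49 ± 0.10 in shCPT-2 (adjusted p = 0.00138). NKX2-8, the homeobox gene on the other side, had differences of 0.16 ± 0.10, 0.13 ± 0.10 and 0.11 ± 0.10, none of which passed (adjusted p = 0.233, 0.333 and 0.418). PAX9, a paired-box factor beyond it, was under the array median on all 12 arrays, as were INSM2, TTC6 and SSTR1, and EGLN3 exceeded it on 1 array. SLC25A21, a mitochondrial carrier, fell in shCPT-1 (-0.43 ± 0.10, adjusted p = 0.00344), where 1 of 3 arrays was above the median, and had a difference of -0.02 ± 0.10 in shCPT-2. MIPOL1 was 0.25 ± 0.08 higher in shCPT-2 (adjusted p = 0.0234). FOXA1, a pioneer factor that works with NKX2-1 in lung, averaged 6.46 ± 0.20 on the log2 intensity scale with ETX, 5.81 ± 0.04 in shCPT-1, 5.92 ± 0.03 in shCPT-2 and 6.27 ± 0.25 in scramble (SD, n = 3 each). It was above the array median on 3 ETX arrays, 2 scramble arrays and 0 knockdown arrays. It thus passed the filter only through the groups where it is high, so its place among the genes called lower in both lines is no support for a fall.

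Further out, NFKBIA, the inhibitor of NF-kB, fell by 0.60 ± 0.05 in shCPT-1 (adjusted p = 3.03e-06) and by 0.83 ± 0.05 in shCPT-2 (adjusted p = 1.25e-07). RALGAPA1, a subunit of a GTPase-activating complex, fell by 0.30 ± 0.07 and 0.20 ± 0.07 in the 2 lines. TRAPPC6B, a vesicle tethering subunit, fell in both lines (-0.31 ± 0.04 and -0.29 ± 0.04) and rose with ETX (0.19 ± 0.04). SEC23A, a COPII coat protein, rose by 0.69 ± 0.15 with ETX and 0.55 ± 0.15 in shCPT-1, and GEMIN2, of the SMN complex, rose by 0.49 ± 0.13 with ETX, 0.41 ± 0.13 in shCPT-1 and 0.49 ± 0.13 in shCPT-2. FBXO33 (-0.34 ± 0.06) and MIA2 (-0.49 ± 0.15) fell in shCPT-1, and with the mean of its kept probe sets FBXO33 did not pass (-0.15, adjusted p = 0.0719). In shCPT-2 EAPP fell (-0.22 ± 0.04) and BAZ1A rose (0.26 ± 0.04, or 0.16 with the mean of kept probe sets). PNN and CFL2 have no settled direction in shCPT-2. The brightest probe set of PNN gave -0.23 ± 0.04, called lower, while the mean of its kept probe sets gave 0.24, called higher (adjusted p = 0.000518). That of CFL2 gave -0.15 ± 0.05, called lower, while the mean gave 0.03 (adjusted p = 0.705). With ETX PPP2R3C (0.38 ± 0.09) and SRP54 (0.20 ± 0.07) rose, and PNN was called lower (-0.12 ± 0.04) but not with the mean of its kept probe sets (-0.04, adjusted p = 0.502). SNX6, PRORP and CLEC14A did not pass in any comparison, with differences between -0.10 and 0.17.

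Several of these small calls were not stable. In shCPT-1 those of MIA2 and GEMIN2 ended when scramble 1, scramble 2 or shCPT-1 1 was left out (adjusted p = 0.0592 to 0.0908), and without shCPT-1 1 the differences were -0.31 and 0.27. In shCPT-2 the call of FOXA1 ended without scramble 1, scramble 2 or shCPT-2 3 (adjusted p = 0.0667 to 0.099), that of RALGAPA1 without scramble 1, scramble 2, shCPT-2 2 or shCPT-2 3 (0.0578 to 0.123), and that of MIPOL1 without scramble 3, shCPT-2 2 or shCPT-2 3 (0.0553 to 0.0682). That of CFL2 ended without scramble 3, shCPT-2 1 or shCPT-2 3 (0.0537 to 0.0715). With ETX, SRP54 ended without scramble 1, scramble 2, ETX 3 or shCPT-1 2 (0.0503 to 0.133, and 0.12 as its difference without ETX 3). PNN with ETX ended without any 1 scramble array, ETX 2, ETX 3, shCPT-1 2 or shCPT-2 3 (0.0503 to 0.106). With the actin signal as a covariate, a setting chosen after seeing the data, FOXA1, SEC23A, MIA2 and GEMIN2 no longer passed in shCPT-1 (adjusted p = 0.0574, 0.0596, 0.197 and 0.192). GEMIN2, FOXA1 and RALGAPA1 no longer passed in shCPT-2 (0.107, 0.273 and 0.425), nor did SRP54 and PNN with ETX (0.2 and 0.0899). SEC23A and PPP2R3C still passed with ETX, at smaller differences. NKX2-1 and SFTA3 were as large with that covariate, at 1.41 and 1.76 in shCPT-1 and 1.90 and 2.06 in shCPT-2.

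**Figure D2:**
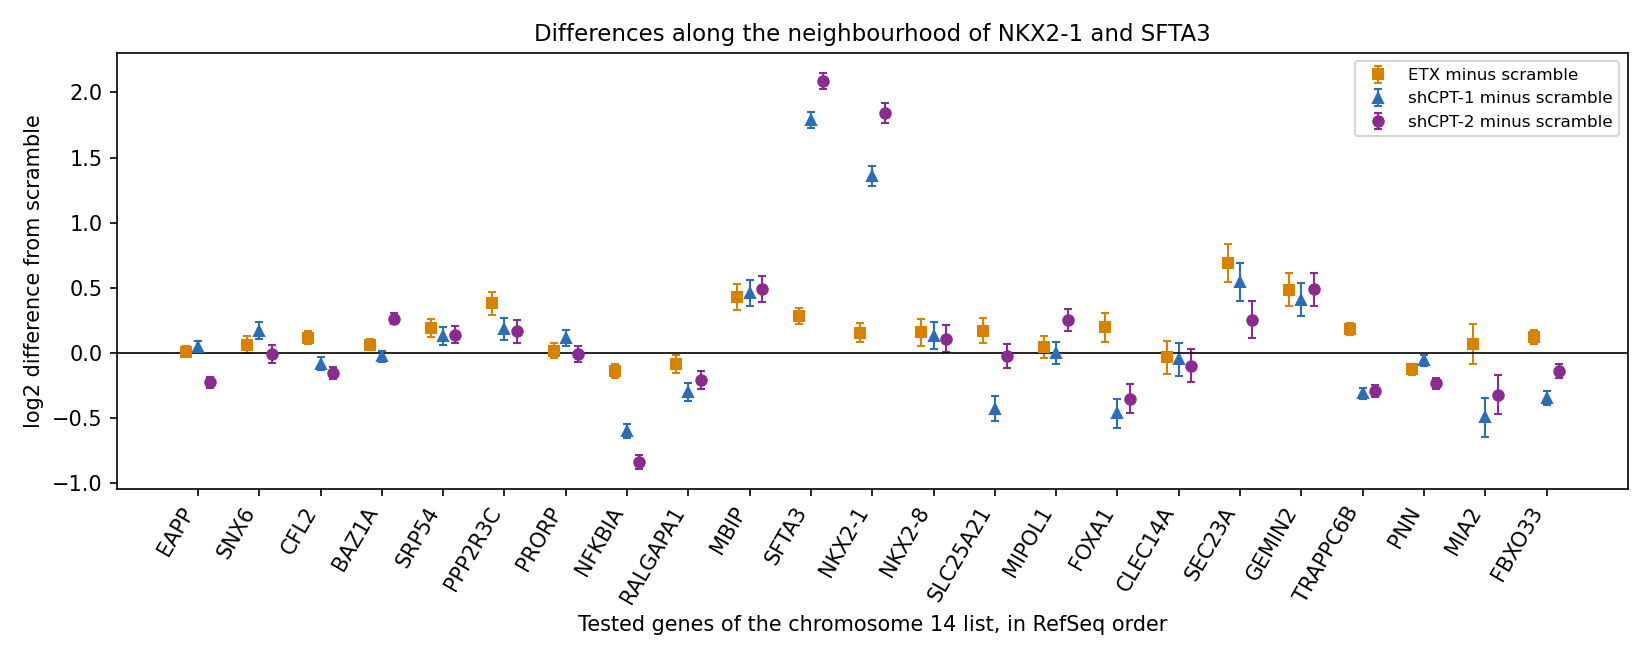
Log2 difference from scramble (vertical axis) for the tested genes of the chromosome 14 list and for SFTA3 and NKX2-1 (probe set 211024_s_at), in RefSeq order along the chromosome, with even spacing in place of distance. Squares are ETX, triangles shCPT-1 and circles shCPT-2, and bars are the SE of the fit with 3 arrays per group. SFTA3 and NKX2-1 stand between 1.36 and 2.09 in the knockdown lines, while no tested neighbour is above 0.70 in any comparison.

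Genes that NKX2-1 is known to drive in lung were then examined, beginning with surfactant and alveolar genes. Of 18 such genes 10 were tested. With ETX 1 was higher and 1 lower (median -0.09), where 21.9% and 19.4% of all tested genes were. In shCPT-1 2 were higher and 2 lower (median 0.00), against 23.1% and 18%, and in shCPT-2 1 was higher and 2 lower (median -0.06), against 25.6% and 20.5%. These counts are near the shares over all tested genes. CTSH, the cathepsin that processes surfactant protein B, rose by 0.43 ± 0.04 in shCPT-1 (adjusted p = 7.8e-06) and by 0.54 ± 0.04 in shCPT-2 (adjusted p = 7.35e-07). ABCA3, the lipid transporter of lamellar bodies, fell by 0.38 ± 0.06 in shCPT-1 (adjusted p = 0.000201) and by 0.41 ± 0.06 in shCPT-2 (adjusted p = 8.48e-05). ETV5, an ETS factor, rose by 0.42 ± 0.04 in shCPT-1 and by 0.17 ± 0.04 with ETX, where the mean of its kept probe sets did not pass (0.14, adjusted p = 0.0515). LPCAT1, which makes surfactant phosphatidylcholine, fell by 0.74 ± 0.05 with ETX (adjusted p = 1.16e-06) and by 0.17 ± 0.05 in shCPT-2, a call that ended without shCPT-2 3 (adjusted p = 0.0663) and with the actin covariate (0.136).

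Among the surfactant proteins themselves, SFTPB fell by 0.24 ± 0.07 in shCPT-1 (adjusted p = 0.022). It no longer passed with scramble 1, scramble 2, shCPT-1 1 or shCPT-1 3 left out (adjusted p = 0.057 to 0.0963), with the actin covariate (0.199) or with the mean of its kept probe sets (-0.08, adjusted p = 0.188). SFTPC had differences of 0.09 ± 0.10 with ETX, -0.08 ± 0.10 in shCPT-1 and -0.05 ± 0.10 in shCPT-2, and NAPSA, the aspartic protease of alveolar cells, -0.05 ± 0.08, 0.12 ± 0.08 and -0.04 ± 0.08, none of which passed. SFTPD, LAMP3, SLC34A2, CLDN18, SFTA2 and HOPX were under the array median on all 12 arrays, and SFTPA1 and SFTPA2 have no probe set with a single symbol.

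Airway secretory genes were mostly under the array median. Of 12 genes 5 were tested by limma, with 1 higher and 1 lower with ETX, 0 higher and 1 lower in shCPT-1, and 0 higher and 2 lower in shCPT-2. The counts higher in the 2 lines were also 0 at an unadjusted p under 0.05. The shares over all tested genes were 21.9% higher and 19.4% lower with ETX, 23.1% and 18% in shCPT-1, and 25.6% and 20.5% in shCPT-2. With 5 genes tested, the counts are too few to be told apart from these shares. In shCPT-2 the 5 differences ran from -0.54 to -0.05 (median -0.24, against 0.00 over all tested genes). SCGB1A1 and SCGB3A2, secretoglobins of airway club cells, were under the array median on all 12 arrays, as were SCGB3A1, CYP2F1, BPIFA1 and BPIFB1. KRT7, a keratin of simple epithelia, fell in all 3 comparisons (-0.24 ± 0.06 with ETX, -0.40 ± 0.06 in shCPT-1 and -0.54 ± 0.06 in shCPT-2). AGR2, a secretory pathway disulfide isomerase, rose with ETX (0.73 ± 0.13, adjusted p = 0.000833) and fell in shCPT-2 (-0.47 ± 0.13, adjusted p = 0.00798), where 1 of 3 arrays was above the median.

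Thyroid genes showed no common direction. Of 16 genes 5 were tested, and in shCPT-1 0 passed by limma, also 0 at an unadjusted p under 0.05. In shCPT-2 and with ETX 1 was higher and 1 lower. Over all tested genes 23.1% were higher and 18% lower in shCPT-1, 25.6% and 20.5% in shCPT-2, and 21.9% and 19.4% with ETX, so 0 or 1 of 5 is no result about the list. TG, the thyroglobulin gene, TSHR, the thyrotropin receptor, and FOXE1 were under the array median on all 12 arrays. PAX8, the thyroid and kidney factor that partners NKX2-1, differed by 0.06 ± 0.05 with ETX, -0.10 ± 0.05 in shCPT-1 and -0.06 ± 0.05 in shCPT-2, and did not pass. HHEX, a homeobox factor of the early thyroid, rose by 0.40 ± 0.08 with ETX (adjusted p = 0.00165) and by 0.34 ± 0.08 in shCPT-2 (adjusted p = 0.00316, or 0.0548 with the actin covariate), and by 0.25 and 0.20 with the mean of its kept probe sets. DUOXA2, a maturation factor of a thyroid oxidase, had weak calls as lower with ETX (-0.35 ± 0.11) and in shCPT-2 (-0.29 ± 0.11). The first ended without scramble 1, scramble 3, ETX 1 or ETX 2 (adjusted p = 0.0501 to 0.0914) and the second without any of scramble 1, scramble 3, ETX 1, shCPT-1 1, shCPT-1 3, shCPT-2 1 and shCPT-2 3 (0.0507 to 0.15).

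In the ventral forebrain list 5 of 17 genes were tested by limma. In shCPT-1 0 were higher (1 at an unadjusted p under 0.05) and 2 lower, in shCPT-2 0 were higher (0 unadjusted) and 1 lower, and with ETX 0 passed (1 unadjusted). The shares over all tested genes were 23.1% higher and 18% lower in shCPT-1, 25.6% and 20.5% in shCPT-2, and 21.9% and 19.4% with ETX. LHX6, which NKX2-1 switches on in cortical interneurons, had differences of -0.10 ± 0.11 with ETX, 0.24 ± 0.11 in shCPT-1 and 0.00 ± 0.11 in shCPT-2 and did not pass. SHH, the signal that induces NKX2-1 in the forebrain, fell by 0.45 ± 0.08 in shCPT-1 (adjusted p = 0.000787) and by 0.44 ± 0.08 in shCPT-2 (adjusted p = 0.000737). GAD1, an enzyme of GABA synthesis, fell by 0.45 ± 0.10 in shCPT-1, or by 0.26 with the mean of its kept probe sets and 0.24 with the actin covariate. LHX8, SST, PVALB and GAD2 were under the array median on all 12 arrays.

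Of 24 foregut transcription factors, which act beside NKX2-1 in the embryo, 12 were tested by limma. With ETX 1 was higher and 3 lower, in shCPT-1 2 were higher and 4 lower, and in shCPT-2 0 were higher, also 0 at an unadjusted p under 0.05, and 6 lower (median -0.14). Over all tested genes the shares higher and lower were 21.9% and 19.4% with ETX, 23.1% and 18% in shCPT-1, and 25.6% and 20.5% in shCPT-2. FOXA1 is counted among those lower in both lines, though it was under the array median on all 6 knockdown arrays. It passed the filter only through the groups where it is high, so its part in these counts is no support for a fall. NFIB is also counted among those lower in both lines. In shCPT-1 its direction is not settled, since the mean of its kept probe sets gave 0.0047 (limma adjusted p = 0.944). FOXP2 rose by 0.46 ± 0.05 with ETX and fell by 0.23 ± 0.05 in shCPT-1 and 0.43 ± 0.05 in shCPT-2, or 0.21 in shCPT-2 with the mean of its kept probe sets. FOXP1 fell by 0.16 ± 0.04, 0.17 ± 0.04 and 0.33 ± 0.04 in the same order, and FOXA2 by 0.21 ± 0.05 with ETX and 0.25 ± 0.05 in shCPT-2. WWTR1 (TAZ), a coactivator that can bind NKX2-1, rose by 0.76 ± 0.06 in shCPT-1 (adjusted p = 9.68e-07) and fell by 0.41 ± 0.06 in shCPT-2 (adjusted p = 0.000106). SOX9 fell by 0.64 ± 0.04 with ETX and rose by 0.32 ± 0.04 in shCPT-1, and GATA6, which acts with NKX2-1 at surfactant promoters, did not pass, with differences of 0.06 ± 0.05, 0.04 ± 0.05 and -0.01 ± 0.05.

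Among the related NK homeobox genes none passed as higher. Of 13 genes 7 were tested, and 0 were higher in any comparison by limma at an adjusted p under 0.05, also 0 at an unadjusted p under 0.05, where 21.9% (ETX), 23.1% (shCPT-1) and 25.6% (shCPT-2) of all tested genes were. In each comparison 1 was lower, against 19.4%, 18% and 20.5%. NKX3-2, a factor of skeletal development, fell by 1.16 ± 0.11 in shCPT-1 (adjusted p = 3.58e-06) and by 1.11 ± 0.11 in shCPT-2 (adjusted p = 3.92e-06), with -0.26 ± 0.11 for ETX (adjusted p = 0.0698). NKX6-2, above the array median on 0 of 3 ETX arrays and 2 of 3 scramble arrays, was called lower with ETX (-0.18 ± 0.07, adjusted p = 0.0468), a call that ended without scramble 1, scramble 2, ETX 1, ETX 3, shCPT-1 2 or any 1 shCPT-2 array (0.054 to 0.168). NKX2-5 was above the median on all 12 arrays and did not pass, while NKX2-2 and NKX2-3 were under it on all 12.

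A list of 12 genes linked to NKX2-1 in lung cancer cells had 10 tested members. It was put together from general knowledge, with earlier results of these data known, and includes both targets and receptors. With ETX 4 were higher and 1 lower (median 0.07), against 21.9% and 19.4% of all tested genes and a median of -0.01. In shCPT-1 7 were higher and 1 lower (median 0.36), against 23.1% and 18% and a median of 0.01, and in shCPT-2 5 were higher and 2 lower (median 0.15), against 25.6% and 20.5% and a median of 0.00. The counts higher in both lines include SELENBP1 and LMO3, which passed the filter only through the knockdown arrays. That in shCPT-1 also includes DUSP6, which barely passed (0.15 ± 0.06, limma adjusted p = 0.0499). The counts higher are thus descriptions and no result about the list. ROR1, a receptor that NKX2-1 induces in lung adenocarcinoma, rose by 0.58 ± 0.06 in shCPT-1 (adjusted p = 1.71e-05) and by 0.75 ± 0.06 in shCPT-2 (adjusted p = 1.45e-06), with 0.13 ± 0.06 for ETX (adjusted p = 0.117). DAPK1, a death-associated kinase, rose by 0.52 ± 0.06 and 1.03 ± 0.06 in the 2 lines, with -0.01 ± 0.06 for ETX. SELENBP1, a selenium-binding protein, averaged 5.80 ± 0.12 on the log2 intensity scale with ETX, 6.83 ± 0.08 in shCPT-1, 6.65 ± 0.15 in shCPT-2 and 5.80 ± 0.44 in scramble (SD, n = 3 each). It was above the array median on all 6 knockdown arrays, 0 ETX arrays and 1 scramble array. Since it passed the filter through the knockdown lines where it is high, its place among the genes called higher in both is no support for a rise. CLDN1, a tight junction claudin, rose in all 3 comparisons, by 1.06 ± 0.08 with ETX, 0.62 ± 0.08 in shCPT-1 and 1.27 ± 0.08 in shCPT-2.

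LMO3, a target in lung adenocarcinoma, differed from scramble by -0.38 ± 0.08 with ETX, 0.38 ± 0.08 in shCPT-1 and 0.24 ± 0.08 in shCPT-2. It was above the array median on 3 of 3 arrays in each knockdown line, 2 of 3 in scramble and 0 of 3 with ETX. It thus passed the filter only through the knockdown lines where it is high, so its calls as higher there are no support for a rise. OCLN, the tight junction occludin, rose by 0.25 ± 0.05 with ETX and by 0.33 ± 0.05 in shCPT-1. DUSP6, a MAPK phosphatase, rose by 0.21 ± 0.06 with ETX and fell by 0.29 ± 0.06 in shCPT-2, MET, the HGF receptor, rose by 0.24 ± 0.06 with ETX, and EGFR, the EGF receptor, fell by 0.37 ± 0.09 in shCPT-1 and 0.34 ± 0.09 in shCPT-2. MYBPH and GRIA1 were under the array median on all 12 arrays. A list built around stomach genes that rise in mouse lung tumours without Nkx2-1 was mostly dim, with 3 of 15 members tested. The 3 were HMGA2, ONECUT2 and SNAI2, none of them specific to stomach. The stomach genes, such as GKN1, TFF1 and CTSE, were under the filter or had no probe set with a single symbol. The counts therefore do not read stomach genes. By limma 0 of the 3 were higher in any comparison, also 0 at an unadjusted p under 0.05. With ETX 2 were lower, in shCPT-1 2 and in shCPT-2 1, against 19.4%, 18% and 20.5% of all tested genes. SNAI2, an EMT factor on that list, fell by 0.21 ± 0.05 with ETX, 0.49 ± 0.05 in shCPT-1 and 0.53 ± 0.05 in shCPT-2, and HMGA2 by 0.14 ± 0.05 with ETX and 0.19 ± 0.05 in shCPT-1. The HMGA2 call with ETX ended without scramble 1, scramble 2, ETX 1 or ETX 2 (adjusted p = 0.0752 to 0.127), and both of its calls ended with the actin covariate (0.193 and 0.0583).

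The genes with profiles most like the pair were found by centring each gene on its own mean over the 12 arrays and taking the root mean square of the differences in log2 units. These genes were chosen for their likeness, so their values are descriptions. The gene nearest to NKX2-1 was MGC12916, a noncoding transcript, at 0.10, and SFTA3 came next at 0.18, against a median of 0.79 over all other tested genes. FBXL16, RANGRF, NUP210, CEP192P1, NLRP2, AHNAK2, ZNF18 and CTC1 followed at 0.19 to 0.27. For SFTA3 the order was MATN2 at 0.17, NUP210 at 0.18, NKX2-1 at 0.18, MGC12916 at 0.24, AFAP1-AS1 at 0.26, RANGRF, NLRP2, SAMSN1, AIF1L and AHNAK2, the last at 0.33, against a median of 0.91. Besides the pair itself, 5 genes were in both sets of 10. NUP210, a nuclear pore protein, was 0.13 above scramble with ETX, 1.78 above it in shCPT-1 and 1.95 above it in shCPT-2, and MATN2, a matrix protein, 0.01, 1.84 and 2.03.

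Of the 10 genes nearest to NKX2-1, SFTA3 and AHNAK2 lie on chromosome 14, and AHNAK2 is not on the neighbour list. Another 4 of the 10, MGC12916, RANGRF, ZNF18 and CTC1, lie on chromosome 17, which carries 6.12% of the tested genes. Of the 10 genes nearest to SFTA3, 2 lie on chromosome 17, MGC12916 and RANGRF again. RANGRF, a regulator of RAN, was 0.13 above scramble with ETX, 1.44 above it in shCPT-1 and 1.39 above it in shCPT-2. CTC1, of the CST telomere complex, differed by -0.04, 0.97 and 1.19 in the same order.

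**Figure D3:**
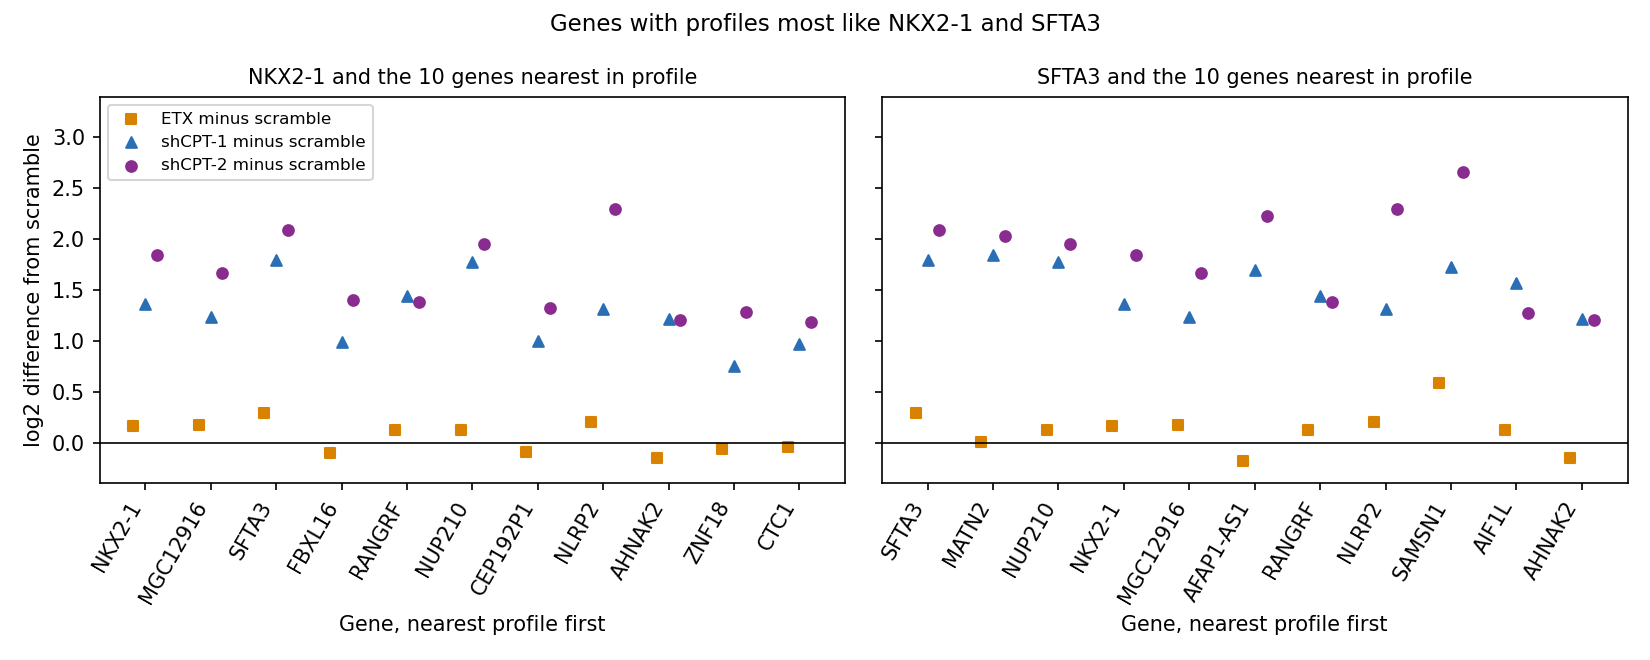
Log2 difference from scramble (vertical axes) for NKX2-1 and SFTA3, at the left of each panel, and for the 10 genes nearest to each in profile over 12 arrays, nearest first. Squares are ETX, triangles shCPT-1 and circles shCPT-2, all as differences of means of 3 arrays. In every gene shown both knockdown points lie above the ETX point, as the choice by likeness leads to.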

How the data were processed

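Total RNA was labelled with biotin and read on single-colour Affymetrix arrays, per the labels. The deposited intensity values, 1 per probe set and array from 6.68 to 28791 on a linear scale, were made by the authors with RMA per the submitters' processing notes. No source used here states its version or settings, nor any genome build. Log2 of these values was used. Platform annotation named 41091 probe sets with 1 symbol. Probe sets above their array's median on at least 3 arrays were kept (28628), and the kept one with the highest mean stood for its gene (12886 genes). Groups were compared with limma 3.58.1 in R 4.3.3 (lmFit, contrasts and eBayes over all 12 arrays, two-sided, Benjamini-Hochberg adjusted p under 0.05). Tested on data simulated for shCPT-1 against scramble over 12886 genes, the fit recovered 88 of 100 genes set to change by 0.5 log2 units and 100 of 100 set to change by 1. It also called 10 of 12686 genes left unchanged. The simulated noise was independent and normal, and far fewer genes changed than were called in these data. These counts are therefore not error rates of the calls reported here. The members and the 11 lists, of 163 genes with 84 tested, were chosen with earlier results of these data known. Named were all probe sets of the pair, the 10 nearest genes of each, all tested neighbours, and up to 4 called members of each other list per comparison. Figures used Python 3.11.15 and matplotlib 3.10.9. Start windows came from RefSeq GRCh38.p14. Alternatives were another normalization or centring, other filters, a gene's mean over probe sets, another variance model, fewer groups, a replicate block, an actin covariate and leaving out arrays.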

Additional observations from a re-analysis of the deposited data

How the results depend on the processing

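For NKX2-1 the choice of probe set decided the size. With the mean of its kept probe sets the log2 difference was 0.753 in shCPT-1, 1.04 in shCPT-2 and -0.0431 with ETX against scramble, and 0.287 for shCPT-2 against shCPT-1. With probe set 210673_x_at on its own these were 0.147, 0.238, -0.24 and 0.0912, so the sign with ETX turned under both. With each array left out in turn, the NKX2-1 difference stayed between 1.32 and 1.41 in shCPT-1, 1.80 and 1.88 in shCPT-2, and 0.08 and 0.22 with ETX, and that of SFTA3 between 1.75 and 1.86, 2.05 and 2.16, and 0.25 and 0.35. Genes called over the whole table ranged from 4372 to 5570 in shCPT-1, 4960 to 6102 in shCPT-2, 3832 to 5575 with ETX and 3692 to 5296 for shCPT-2 against shCPT-1 over all settings. Same-numbered arrays of different groups showed no common deviation (r from -0.456 to 0.328 over 18 pairs, against -0.453 to 0.612 for other numbers). No pairing by number was thus seen, though this was not tested. With the replicate block NKX2-1 kept 1.36 and SFTA3 1.79 in shCPT-1. The block ended the calls of PNN and HMGA2 with ETX (adjusted p = 0.0554 and 0.0555), NKX6-2 with ETX (0.0539) and CD44 in shCPT-1 (0.0593). Of the 87 calls of listed genes that were checked, 62 held in every setting. Checked were all called neighbours on chromosome 14 and, of each other list, up to 4 calls with the smallest p per comparison. Weaker calls of the longer lists, such as DUSP6 in shCPT-1 and LMO3 in shCPT-2, were not checked. With the mean of kept probe sets the sign turned for PNN (0.24, called higher, adjusted p = 0.000518) and CFL2 (0.0259) in shCPT-2 and for NFIB (0.0047) in shCPT-1. The cause was not tested. Signal over background limits genes near the array median, such as FOXA1.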

Other observations

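Of the 10 genes nearest in profile to NKX2-1, 4 lie close together in RefSeq order on chromosome 17. For SFTA3 2 of the 10 nearest lie on that chromosome, and both are among these 4. Among genes at least 1 log2 unit above scramble in both knockdown lines, 7 of 28 lie on chromosome 17, and 6 of these 7 (NAA38, TRAPPC1, RANGRF, SCO1, ADPRM and MGC12916) fall between places 122 and 159 of the 788 tested genes of that chromosome. CTC1 and ZNF18 fall in the same stretch. The other, RAD51C, is at place 559. Over the 38 tested genes from NAA38 to MGC12916 the median log2 difference was 0.74 in shCPT-1 (range -0.24 to 1.44), 0.82 in shCPT-2 (-0.21 to 1.67) and -0.05 with ETX (-0.56 to 0.46). Over the other 750 tested genes of chromosome 17 it was 0.02 in shCPT-1, 0.02 in shCPT-2 and -0.05 with ETX. This stretch was chosen after its values were seen, so it has no test. The neighbours of NKX2-1 and SFTA3 on chromosome 14 had no such common shift, with medians of -0.03 in shCPT-1 and -0.02 in shCPT-2.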
